A study of Homo sapiens with 12 samples.

Results

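CircHIPK3, circSMARCA5 and circZNF609 are abundant, widely studied circular RNAs (circRNAs) that serve as benchmarks in many circRNA surveys. They were looked up by their circBase-style identifiers, hsa_circ_0000284, hsa_circ_0001445 and hsa_circ_0000615. The host genes HIPK3, SMARCA5 and ZNF609 are those reported for these identifiers, since the count table pairs no identifier with a gene. Of the 3 identifiers, 2 had a row among the 6384 circRNA rows of the table. No row carried hsa_circ_0000615, so circZNF609 was not analysed here. Both rows found passed the filter on low counts and were among the 1307 circRNAs tested.

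RNA immunoprecipitation (RIP) followed by sequencing was carried out on MDA-MB-231 cells, an established line of triple-negative breast cancer, with 3 libraries in each of 4 groups. Res RIP and Res IgG came from cells with established resistance to bromodomain and extra-terminal (BET) inhibitors that stayed under the inhibitor until harvest, precipitated with a monoclonal antibody against IGF2BP2 or with normal rabbit IgG. Sens RIP and Sens IgG came from the untreated parental cells, labelled wild type, with the same antibody and control. Resistance and current drug exposure therefore differ together between the lines. The labels do not say that replicates came from separate cultures, so p-values measure a spread between libraries that may be technical. In the fit reported, that spread was pooled over circRNAs and is not the own spread of each circRNA.

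A circRNA forms when a splice donor joins an upstream acceptor and the exons between them close into a ring without free ends, which makes it resistant to exonucleases. IGF2BP2 binds many transcripts, with a preference for sites carrying N6-methyladenosine, and is known for effects on their stability and translation. CircHIPK3 derives from the gene of a homeodomain-interacting protein kinase and has been described as a binder of several microRNAs. CircSMARCA5 derives from the gene of a chromatin-remodelling ATPase and has been described as a binder of the splicing factor SRSF1 in glioblastoma cells. None of these roles was measured here. No nucleotide sequence of these rings was held in the data or tables used here, and none is shown.

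Depth was low. Libraries held 5179 to 8662 circRNA counts for Res RIP, 3860 to 6036 for Res IgG, 4448 to 5561 for Sens RIP and 1960 to 2989 for Sens IgG. External spike-in (ERCC) transcripts took 7.51% to 10.9%, 93.5% to 93.8%, 10.6% to 12.4% and 97.8% to 97.9% of all counts in the same order of groups. The IgG libraries of a line resembled each other in content far more than the RIP libraries did. Of the circRNAs detected in either of 2 libraries of a group, both libraries held 28.6% to 31.2% for Res RIP, 79.6% to 82.5% for Res IgG, 25.1% to 27.4% for Sens RIP and 81.6% to 87.0% for Sens IgG. Counts summed over the 3 libraries were most often 1 in Res RIP (45.7% of 4274 circRNAs detected) and 7 in Res IgG (8.21% of 1243), and 1 in Sens RIP (52.7% of 3487) and 7 in Sens IgG (6.95% of 475). Whether the 3 IgG libraries of a line hold independent RNA was not tested, so the fits that use them were also run with the IgG libraries of each line summed to 1 sample, whose spread is then assumed to be that of the RIP libraries.

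CircHIPK3 was detected in all 12 libraries, with 487 counts in all. There were 33, 88 and 56 counts in Res RIP, against 13, 33 and 37 in Res IgG. There were 65, 69 and 48 counts in Sens RIP, against 19, 12 and 14 in Sens IgG. The circRNA was thus well represented with either antibody, and in Res the raw counts of the antibodies overlapped.

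CircSMARCA5 was near the limit of detection, with 26 counts in all and a count in 8 of 12 libraries. It had 1, 3 and 0 counts in Res RIP, against 0, 0 and 1 in Res IgG. It had 1, 0 and 2 counts in Sens RIP, against 8, 3 and 7 in Sens IgG. Its raw counts were therefore concentrated in Sens IgG, which held 18 of the 26. Those libraries held the fewest circRNA counts, but ERCC took 97.8% to 97.9% of all their counts. Per 1000 ERCC counts circSMARCA5 averaged 0.0490 ± 0.0139 for Sens IgG and 0.00366 ± 0.00633 for Res IgG. On that scale the RIP averages were higher, at 1.90 ± 2.17 for Res and 1.70 ± 1.92 for Sens (SD, n = 3 each). These RIP averages rest on 4 and 3 counts. The filter asked for at least 2 counts in 3 or more libraries, and circSMARCA5 met it only through Sens IgG. Outside that group it had 2 or more counts only in Res RIP replicate 2 and Sens RIP replicate 3. A library without a count allows a share of up to 3 counts, which is 0.0579% of circRNA counts in Res RIP replicate 3, 0.0777% and 0.0556% in Res IgG replicates 1 and 2, and 0.0629% in Sens RIP replicate 2. These limits and the intervals below cover counting error only, because several reads may stem from the same molecule.

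Ranks within a library do not depend on how libraries are scaled, although counts were not corrected for length. By count, circHIPK3 ranked 16th, 7th and 7th in Res RIP, with 1847 to 2681 circRNAs detected per library. It ranked 24th, 6th and 7th in Res IgG, with 1039 to 1138 detected, where the 24th place was tied with 8 others and the 6th with 2. It ranked 5th, 6th and 5th in Sens RIP, with 1591 to 1908 detected, and 9th, 13th and 20th in Sens IgG, with 407 to 441 detected. CircHIPK3 was therefore among the 24 most counted circRNAs of every library, and in Res its rank did not separate the antibodies.

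CircSMARCA5 ranked 887th and 490th in the Res RIP libraries that held it and 972nd in the Res IgG library that held it. It ranked 720th and 314th in the Sens RIP libraries that held it, and 94th, 176th and 100th in Sens IgG. The Sens IgG libraries detected the fewest circRNAs, 407 to 441. Relative to the number detected, its ranks were at the top 21.3%, 43.2% and 23.0% in Sens IgG. They were at 37.7% and 19.7% in Sens RIP, 43.0% and 18.3% in Res RIP and 85.4% in Res IgG. On that measure Sens IgG did not stand above the RIP libraries. The Sens IgG ranks rest on 8, 3 and 7 counts and were tied with 13, 58 and 40 other circRNAs. Ranks at 1 count carry no order, since between 166 and 1188 other circRNAs had the same count in those libraries.

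**Figure D1:**
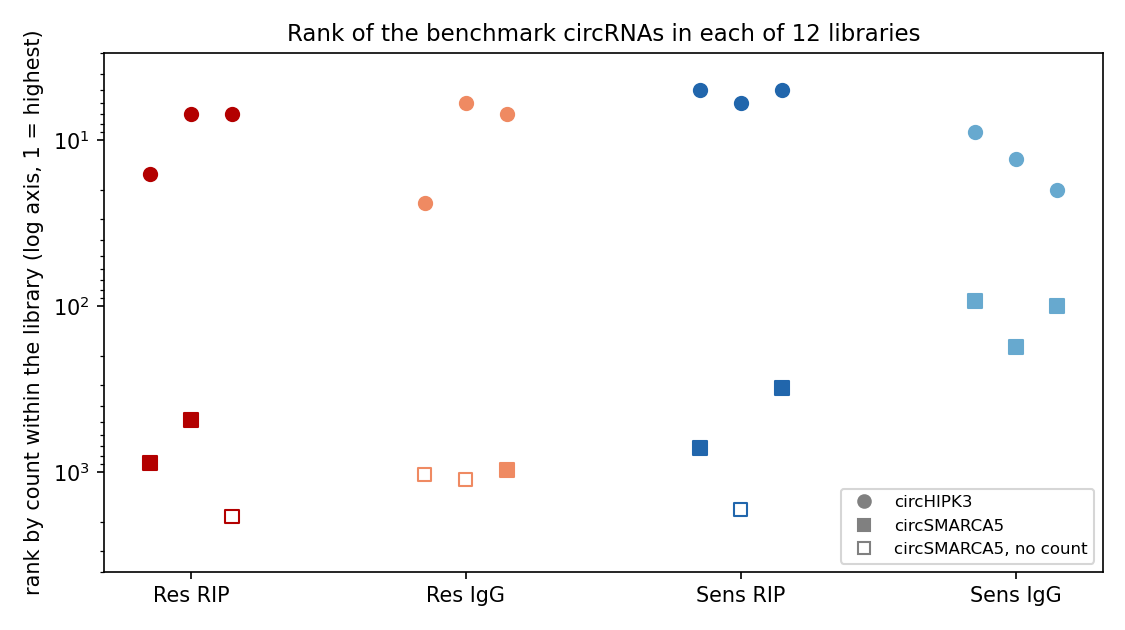
Rank by count within each of the 12 libraries (vertical log axis, 1 is the most counted circRNA) for circHIPK3 (circles) and circSMARCA5 (squares), by group. Open squares mark libraries without a circSMARCA5 count, placed after the last detected circRNA. CircHIPK3 lies between rank 5 and rank 24. CircSMARCA5 is at its highest ranks in Sens IgG, at 94 to 176, where the fewest circRNAs were detected, 407 to 441.

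The first question was whether each circRNA was more abundant with the IGF2BP2 antibody than with IgG. Levels were compared as counts scaled to a common effective library size (CPM), that is, the circRNA total of a library multiplied by a TMM factor, a trimmed mean of log ratios between libraries. In Res cells, circHIPK3 had 9106, 17438 and 17898 CPM in RIP, against 2635, 5543 and 5022 CPM in IgG. Every RIP library lay above every IgG library, although RIP replicate 1 was well below the other RIP libraries and IgG replicate 1 below the other IgG libraries. The level was 3.30-fold higher in RIP (log2 difference 1.72, SE 0.24, edgeR quasi-likelihood test, adjusted p = 6.51e-11).

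In Sens cells, circHIPK3 had 21116, 24867 and 17807 CPM in RIP, against 2731, 2403 and 2182 CPM in IgG. The groups were far apart. The level was 8.61-fold higher in RIP (log2 difference 3.11, SE 0.26, edgeR, adjusted p = 1.67e-29). Higher calls were common over the whole table, at 33.7% of circRNAs tested in Res and 39.8% in Sens, so a call alone does not set circHIPK3 apart. Of all 1307 circRNAs tested, 498 had a larger log2 difference than circHIPK3 in Res and 571 in Sens, many of them without an IgG count. Among those with a count from both antibodies, which leaves such circRNAs out, 57 of 539 had a larger difference in Res and 22 of 246 in Sens. With the IgG libraries of each line summed to 1 sample the log2 difference of circHIPK3 was 1.68 in Res (edgeR, adjusted p = 2.99e-07) and 2.93 in Sens (edgeR, adjusted p = 1.2e-17).

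The higher level of circHIPK3 in RIP held in both lines under all 21 alternatives of scaling, test, filter, block and libraries, with adjusted p up to 0.00997 in Res and up to 0.000332 in Sens. Its size depended on scaling. As a share of all circRNA counts, circHIPK3 took 0.891% ± 0.275 in Res RIP and 0.520% ± 0.159 in Res IgG (SD, n = 3 each), and these groups overlapped. The shares were 1.23% ± 0.191 in Sens RIP and 0.580% ± 0.0770 in Sens IgG (SD, n = 3 each), without overlap. On circRNA totals the log2 difference was 0.74 (SE 0.24, edgeR, adjusted p = 0.00506) in Res and 1.09 (SE 0.27, edgeR, adjusted p = 0.000332) in Sens. On that scale 29.2% of circRNAs tested were called higher and 37.0% lower in Res, and 12.5% higher and 20.6% lower in Sens.

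Against the spike-in the difference was much larger. Per 1000 ERCC counts, circHIPK3 had 99.1 ± 45.0 counts in Res RIP and 0.354 ± 0.106 in Res IgG (SD, n = 3 each). It had 92.6 ± 8.65 in Sens RIP and 0.128 ± 0.0177 in Sens IgG (SD, n = 3 each). The log2 difference was 8.07 (SE 0.36, edgeR, adjusted p = 3.69e-109) in Res and 9.48 (SE 0.38, edgeR, adjusted p = 2.04e-131) in Sens. On that scale edgeR called 67.1% of circRNAs tested higher in Res and 65.4% in Sens, and 0 lower in either line, also 0 at an unadjusted p under 0.05. Per the labels, spike-in was added to equal amounts of purified RNA, so values on it are relative to input RNA and do not measure how much was precipitated.

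**Figure D2:**
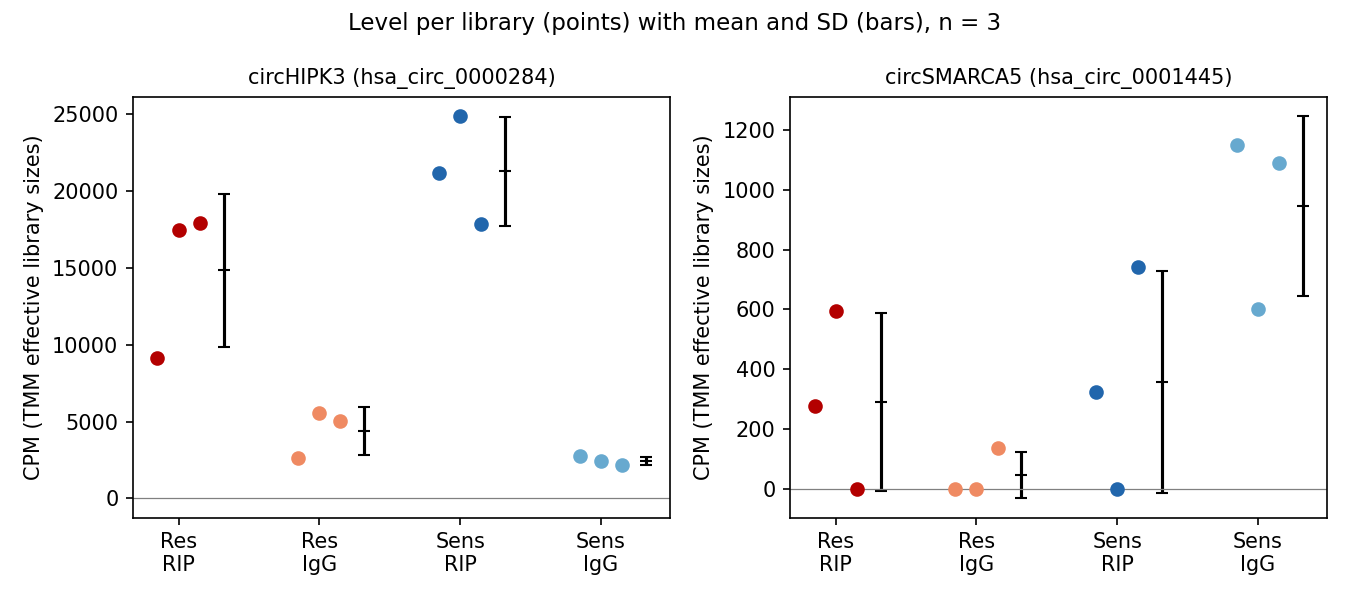
Level of circHIPK3 (left) and circSMARCA5 (right) in CPM on TMM effective library sizes, on linear axes of different range. Points are libraries and bars the mean and SD of the 3 libraries of a group. CircHIPK3 RIP libraries lie above the IgG libraries in both lines, from 9106 to 24867 against 2182 to 5543 CPM, while circSMARCA5 is highest in Sens IgG on this scale, though not against the spike-in.

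CircSMARCA5 passed the test in neither line. It had 276, 594 and 0 CPM in Res RIP, against 0, 0 and 136 CPM in Res IgG. The ratio of summed counts, 4 in RIP and 1 in IgG, was 6.19 on the TMM scale, with an exact 95% interval of 0.612 to 305 (edgeR, adjusted p = 0.156). It had 325, 0 and 742 CPM in Sens RIP, against 1150, 601 and 1091 CPM in Sens IgG. These groups overlapped, and the ratio of summed counts, 3 in RIP and 18 in IgG, was 0.358 with an interval of 0.0676 to 1.23 (edgeR, adjusted p = 0.223).

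The direction of circSMARCA5 in Sens depended on scaling. On circRNA totals the ratio was 0.0879 (95% interval 0.0166 to 0.301) and the difference passed the test as lower in RIP (log2 difference -3.33, edgeR, adjusted p = 0.000642). On spike-in totals the ratio was 29.9 (95% interval 5.65 to 102.5) and it passed as higher (log2 difference 4.87, edgeR, adjusted p = 0.00221). In Res it was higher on spike-in totals as well (log2 difference 8.26, edgeR, adjusted p = 1.42e-06), from 4 counts against 1. Most circRNAs were called higher on that scale, as given above. On every scale circSMARCA5 was tested only because Sens IgG carried it past the filter. The lower call in Sens RIP on circRNA totals is therefore no independent support for a higher level in Sens IgG. With the IgG libraries summed, neither line passed the test on the TMM scale (edgeR, adjusted p = 0.248 in Res and 0.288 in Sens). Lower calls made up 26.0% of circRNAs tested in Res and 10.3% in Sens on the TMM scale, and neither of the benchmark circRNAs was among them.

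**Figure D3:**
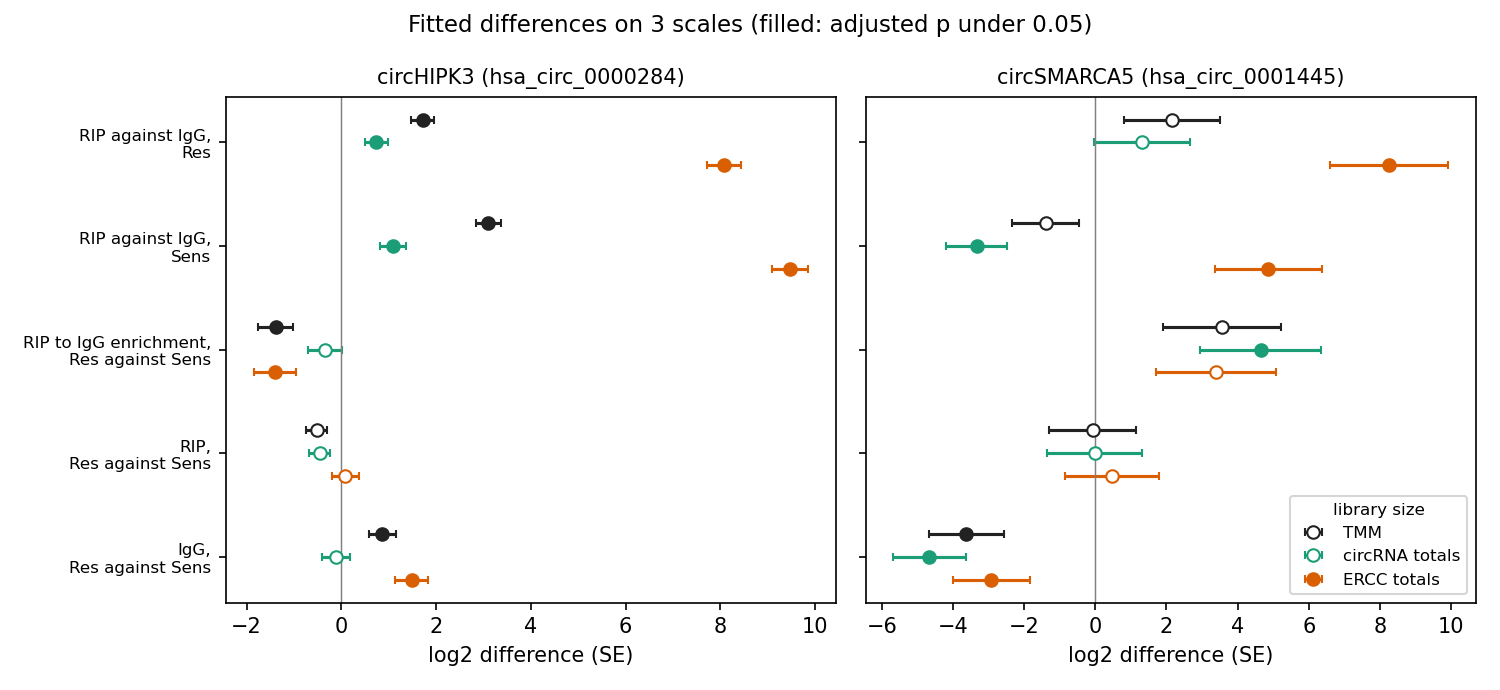
Fitted log2 differences with SE (horizontal axis) for circHIPK3 (left) and circSMARCA5 (right) in 5 comparisons, with libraries scaled by TMM, by circRNA totals or by ERCC totals. Filled points have an adjusted p under 0.05. CircHIPK3 is higher in RIP than in IgG on every scale, whereas circSMARCA5 in Sens is at -1.40, -3.33 and 4.87 on the 3 scales.

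The scales also moved the median log2 difference of all 1307 circRNAs, a median that includes circRNAs without a count in 1 or both groups. It was 0 on TMM, -0.25 on circRNA totals and 6.01 on spike-in totals for RIP against IgG in Res, and 2.44, 1.84 and 7.63 in Sens. Relative to that median, circHIPK3 stood at 1.72, 0.99 and 2.06 in Res and at 0.66, -0.75 and 1.85 in Sens. CircSMARCA5 stood at -3.84, -5.17 and -2.76 relative to the median in Sens, below it on all 3 scales. In Res it stood above the median on all 3 scales, at 2.16, 1.56 and 2.24, from 4 counts against 1. Among circRNAs with a count from both antibodies, the TMM median was -0.72 for the 539 in Res and -0.46 for the 246 in Sens. Of these 246, 82 had a lower log2 difference than circSMARCA5 and 163 a higher one, so it was not set apart there.

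The second question was whether the RIP to IgG enrichment changed with resistance. For circHIPK3 the enrichment was lower in Res than in Sens, with a log2 change of -1.38 (SE 0.37, edgeR interaction test, adjusted p = 0.00277). Lower calls made up 13.4% of circRNAs tested and higher calls 5.59%. The change of circHIPK3 was close to the median of all tested circRNAs, -1.32, with 642 below it and 664 above. Relative to that median it stood at -0.07 on TMM, 1.07 on circRNA totals and -0.90 on spike-in totals. It kept its direction in all 20 alternatives and lost the call in 7. Among these were circRNA totals (-0.35, adjusted p = 0.801), DESeq2 (-0.86, adjusted p = 0.153) and no count filter (-1.18, adjusted p = 0.172). The call was also lost without Res RIP replicate 1 (adjusted p = 0.133), Res IgG replicate 2 (0.111), Sens RIP replicate 1 (0.0695) or Sens IgG replicate 3 (0.127). On spike-in totals it held (-1.40, SE 0.45, edgeR, adjusted p = 0.0172), where 13.3% were called lower. It also held with the IgG libraries summed (-1.25, edgeR, adjusted p = 0.0355).

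For circSMARCA5 the fitted enrichment change was 3.55 (SE 1.66, edgeR, adjusted p = 0.118), with 193 of 1307 circRNAs above it. It passed the test on circRNA totals (4.65, edgeR, adjusted p = 0.0421), where 8.26% were called higher. The change includes Sens IgG, through which alone circSMARCA5 passed the filter, so that call is no independent support. With 1 count in Res IgG the fitted enrichment change depends on the small count the fit adds, and it is no bound.

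The submitters defined enrichment as RIP minus IgG in RPM, reads scaled to the library total, and took its difference between lines, here relative to each library's circRNA total. For circHIPK3 the enrichment was 3707 RPM in Res, from 8911 ± 2747 in RIP and 5204 ± 1591 in IgG. It was 6514 RPM in Sens, from 12314 ± 1914 in RIP and 5800 ± 770.3 in IgG (SD, n = 3 for each group). The delta was -2807 RPM with an SE of 2186, and 22 of the 1307 circRNAs had a lower one. An absolute difference can be larger for a circRNA with more counts, so this place does not measure relative change. The log2 enrichment change of circHIPK3 was close to the median, as given above. The delta was -1232 without Res RIP replicate 1 and -1733 without Sens RIP replicate 2. Its sign turned per 1000 ERCC counts, where the delta was 6.25, small beside the SD of 45.0 in Res RIP. The sign is therefore not settled on that scale, where the log2 enrichment change was -1.40. For circSMARCA5 the enrichment was 118 RPM in Res, and -2013 RPM in Sens, where IgG stood at 2223 ± 609 RPM and RIP at 210 ± 226. Its delta was 2131 RPM with an SE of 392, and 119 circRNAs had a higher one. With all counts of a library as the base, ERCC included, it was 16.5 RPM. Deltas below 0 were the more common, at 58.5% of circRNAs tested.

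The enrichment compares 4 groups, so each antibody was also compared between the lines. Between the RIP groups neither circRNA passed the test. CircHIPK3 averaged 14814 ± 4949 CPM in Res RIP and 21263 ± 3533 CPM in Sens RIP (SD, n = 3 each), and the lowest Sens library, at 17807, lay below the highest Res library, at 17898. The log2 difference was -0.52 (SE 0.22, edgeR, adjusted p = 0.271). It was -0.03 without Res RIP replicate 1 and 0.08 on spike-in totals. The ratio of summed counts, 177 in Res and 182 in Sens, was 0.705 on the TMM scale, with a counting interval of 0.570 to 0.871, and 1.03 on spike-in totals, with 0.836 to 1.28. Few circRNAs were called between the RIP groups, 1.30% higher and 1.07% lower in Res. CircSMARCA5 had 4 summed counts in Res RIP and 3 in Sens RIP, a ratio of 0.966 with an interval of 0.163 to 6.59, which leaves a difference of several-fold undetectable at this depth.

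Between the IgG groups both circRNAs passed the test on the TMM scale, circHIPK3 as higher in Res and circSMARCA5 as lower. CircSMARCA5, however, was tested only because Sens IgG carried it past the filter. On circRNA totals both log2 differences were below 0, at -0.11 for circHIPK3 and -4.66 for circSMARCA5. CircHIPK3 averaged 4400 ± 1551 CPM in Res IgG and 2439 ± 276 CPM in Sens IgG (SD, n = 3 each). The ranges overlapped, since Res IgG replicate 1, at 2635 CPM, lay below Sens IgG replicate 1, at 2731 CPM. It was 1.83-fold higher in Res (log2 difference 0.87, SE 0.29, edgeR, adjusted p = 0.00536). Higher calls made up 49.3% of circRNAs tested, and the median log2 difference of all of them was 1.68 on TMM, 0.88 on circRNA totals and 2.15 on spike-in totals. Relative to that median circHIPK3 stood at -0.81, -0.99 and -0.67. The median includes circRNAs without a count in 1 or both groups. Among the 149 with a count in both IgG groups the TMM median was 0.00067, with 105 circRNAs below circHIPK3 and 43 above. On circRNA totals circHIPK3 went the other way without passing the test (-0.11, edgeR, adjusted p = 0.931). The call was lost with DESeq2 (adjusted p = 0.126), with no count filter (0.0638), and without Res IgG replicate 2 (0.126) or Sens IgG replicate 3 (0.0634). With the IgG libraries of each line summed there is 1 sample on each side and no spread of its own, and the log2 difference was 0.73.

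CircSMARCA5 had 0, 0 and 1 counts in Res IgG, against 8, 3 and 7 in Sens IgG. The groups did not overlap. The Res IgG libraries held more circRNA counts than the Sens IgG libraries. The ratio of summed counts was 0.0559 on the TMM scale, with an exact 95% interval of 0.00134 to 0.354 (log2 difference -3.63, SE 1.04, edgeR, adjusted p = 0.0012). Lower calls made up 18.3% of circRNAs tested. Of all 1307 circRNAs tested, 210 had a lower log2 difference than circSMARCA5, as did 2 of the 149 with a count in both IgG groups. The call and its direction held in the 19 alternatives that kept the IgG libraries as replicates and gave a value, with adjusted p from 3.66e-05 to 0.0204. CircSMARCA5 was tested only because Sens IgG carried it past the filter, so the call is no independent support for a higher level there. With no count filter the log2 difference was -3.62 (edgeR, adjusted p = 0.00618). With the IgG libraries summed, 1 sample on each side, the log2 difference was -3.93. The ratio was 0.0283 on circRNA totals (95% interval 0.00068 to 0.179) and 0.0873 on spike-in totals (0.0021 to 0.553).

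**Figure D4:**
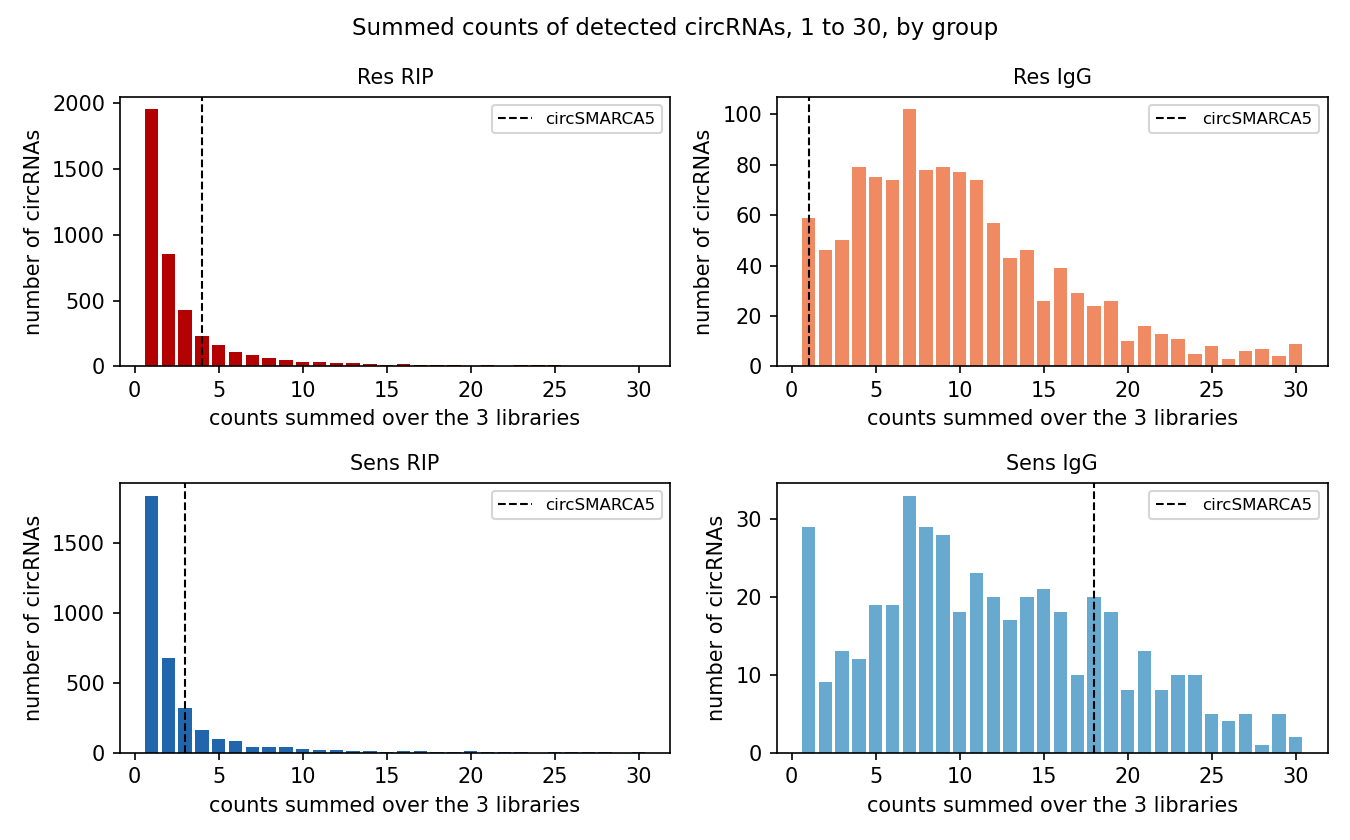
Number of circRNAs (vertical axis, own range in each panel) by their counts summed over the 3 libraries of a group (horizontal axis, sums of 1 to 30). The dashed line marks circSMARCA5, at 4 for Res RIP, 1 for Res IgG, 3 for Sens RIP and 18 for Sens IgG. The most frequent sum is 1 in both RIP groups and 7 in both IgG groups.

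The split of counts between the 2 circRNAs in a library is free of any scaling. CircHIPK3 held 97.1%, 96.7% and 100% of their joint counts in Res RIP, 100%, 100% and 97.4% in Res IgG, and 98.5%, 100% and 96.0% in Sens RIP. In Sens IgG it held 70.4%, 80.0% and 66.7%, below every other library. These lower shares rest on the same circSMARCA5 counts that carried it past the filter, so they add no independent support. How often other pairs of circRNAs separate in this way was not tested. Mean shares were 98.2% ± 2.02 in Sens RIP and 72.3% ± 6.88 in Sens IgG, a difference of 25.8 percentage points (SD, n = 3 each; two-sided exact permutation test, p = 0.1, adjusted p = 0.2 over 4 comparisons). They were 99.1% ± 1.52 in Res IgG and 72.3% ± 6.88 in Sens IgG, a difference of 26.8 points (SD, n = 3 each; exact permutation p = 0.1, adjusted 0.2). That is the smallest p that an exact permutation test of 3 libraries against 3 can give. The other comparisons overlapped, at 97.9% ± 1.81 in Res RIP against 99.1% ± 1.52 in Res IgG (exact permutation p = 0.4, adjusted 0.533) and 98.2% ± 2.02 in Sens RIP (exact permutation p = 1, adjusted 1; n = 3 each).

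Over the 12 libraries, the pattern of circHIPK3 in log2(CPM + 1) was most like that of hsa_circ_0006156 (Pearson's r = 0.97) and hsa_circ_0021570 (r = 0.94), among 118 other circRNAs with at least 60 counts. hsa_circ_0006156 averaged 43861 CPM with the antibody and 5226 CPM with IgG in Res, and 66603 CPM with the antibody and 1421 CPM with IgG in Sens, so that the groups stood in the same order as for circHIPK3. No circRNA came as close to circSMARCA5. The nearest were hsa_circ_0001098 (r = 0.60) and hsa_circ_0002111 (r = 0.50), and at 26 counts this likeness carries little. Between the 2 benchmark circRNAs r was -0.19. These correlations are descriptions over libraries that share the antibody and the scaling factors.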

How the data were processed

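The members and tests were chosen with earlier results of these data known. The authors deposited 1 table of raw counts per circRNA and per ERCC transcript, not normalized, with 1 column for each of the 12 libraries. The build is GRCh37, per the submitters' processing notes, while the alignment, circRNA calling and counting steps are not given in the sources used here. Per the labels' protocols, the authors scaled to the ERCC signal with RUVSeq, which the deposited counts do not carry.

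The 57 ERCC rows, with 7.51% to 97.9% of a library's counts, entered neither library sizes nor tests. The 1307 of 6384 circRNAs that reached 2 counts in 3 or more libraries were fitted with edgeR 4.0.16 in R 4.3.3 (TMM, quasi-likelihood, all 12 libraries, 1 coefficient per group). Benjamini-Hochberg adjusted p-values under 0.05 over all 1307 were called. With infinite prior degrees of freedom, the spread was pooled over circRNAs alone, so p-values do not use the own spread of a circRNA. Without Res IgG replicate 2 these degrees of freedom were 6.06. CircHIPK3, RIP against IgG in Res, then had an adjusted p of 0.00109 (edgeR), against 6.51e-11 in the fit reported. Ratios of summed counts carry exact conditional 95% intervals. Alternatives were other scalings, DESeq2 1.42.0, other filters, a replicate block, fits of 2 groups and libraries left out. Summing the IgG libraries of a line, and summing Sens RIP replicates 2 and 3, were chosen after seeing the data. Fits were tried on simulated data in which all groups shared a common mean profile, apart from set changes in Sens RIP. The real groups differ more in content, so the simulation does not show how the fits behave there.

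Replicate pairs were compared by chi-square tests of their counts with permutation p-values (9999 tables). Over circRNAs with at least 5 counts in a pair all pairs differed (permutation p = 1e-04 each, the smallest possible). Over those with at least 10, Sens RIP replicates 2 and 3 did not (permutation p = 0.135), and they were kept as 2 samples because they differed over the wider set. Deviations from group means correlated by -0.07 to 0.03 between same-numbered libraries. Most counts were so low that counting error could hide a pairing, so these values do not decide whether replicate numbers pair the libraries. Named circRNAs were the members and, for each, the 2 others most correlated with it. Identifiers matched no entry of the gene table (0 of 6384), so no other circRNA was given a host gene.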

Additional observations from a re-analysis of the deposited data

Results flagged for a closer look

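The RIP to IgG enrichment of circHIPK3 (hsa_circ_0000284) differed between the lines by the edgeR interaction test, with a log2 change of -1.38 in Res against Sens (adjusted p = 0.00277). The call was lost in 7 of 20 alternatives. On the TMM scale every RIP library lay above every IgG library of its line, while as a share of circRNA counts Res RIP replicate 1 (0.576%) lay below Res IgG replicates 2 and 3 (0.612% and 0.613%). The IgG level was higher in Res than in Sens (log2 difference 0.87, but -0.11 on circRNA totals) and the RIP level did not pass the test (-0.52, adjusted p = 0.271). The groups of 3 libraries are too small to look for single outlying libraries.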

How the results depend on the processing

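The higher level of circHIPK3 in RIP, in both lines, and the lower level of circSMARCA5 in Res IgG kept direction and call in every alternative that gave a value. One of these, the IgG libraries of a line summed, leaves 1 sample on each side between IgG groups, with the spread of the RIP libraries assumed, so it is no test of its own there. With at least 5 counts in 3 libraries, which left 370 circRNAs, circSMARCA5 was not tested. In the main fit, and in the other scalings with the same filter, circSMARCA5 was tested only because Sens IgG carried it past the filter. Its calls against Sens IgG are therefore no independent support for a higher level there. The cause of the changes below was not tested. CircHIPK3 enrichment change: -0.35 with circRNA totals, -0.86 with DESeq2 and -1.18 with no count filter, none called, and -1.61 to -0.88 with single libraries left out. CircHIPK3 in IgG: -0.11 with circRNA totals, 0.64 with DESeq2, 0.87 with no filter and 0.73 with IgG libraries summed, none called, and 0.70 to 1.10 with libraries left out. CircHIPK3 in RIP between lines: 0.083 with spike-in totals. CircSMARCA5, RIP against IgG: -3.33 (circRNA totals) and 4.87 (spike-in) in Sens, and 8.26 (spike-in) in Res, all called. Its enrichment change was 4.65 with circRNA totals, called. CircSMARCA5 in RIP between lines, never called, was -0.07 in the fit reported, 0.47 with spike-in totals, 0.13 with DESeq2, 0.15 with no filter, 0.011 with the replicate block, and -1.12 to 0.87 with libraries left out.

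The circHIPK3 delta was 6.25 per 1000 ERCC counts, within the SD of Res RIP on that scale. The circSMARCA5 delta was 16.5 RPM with all counts of the column as denominator and 0.247 per 1000 ERCC counts. The share of circHIPK3 in the counts of both circRNAs differed by -0.24 points between Res RIP and Sens RIP, and by -1.32 to 0.68 with libraries left out. As a share of all circRNA counts, circHIPK3 differed by 0.37 points between RIP and IgG in Res and by -0.060 between Res IgG and Sens IgG, the opposite of -1.20 and 26.8 for the share within the pair.

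Calls over the whole table were 780 for RIP against IgG in Res and 654 in Sens, 248 for the enrichment change, 31 between RIP groups and 883 between IgG groups. DESeq2 gave 220, 220, 116, 20 and 340. At least 5 counts in 3 libraries gave 242, 242, 137 and, between IgG groups, 259, out of 370 circRNAs tested instead of 1307. No filter, with more circRNAs tested, gave 380 in Sens, 116 for the enrichment change and 17 between RIP groups. The numbers called under other filters are therefore not out of the same total. circRNA totals gave 433 in Sens, spike-in totals 58 between RIP groups, and IgG libraries summed 404 in Sens and 130 for the enrichment change. With the replicate block 17 were called between RIP groups. The block changed no call of either benchmark circRNA, and whether replicate numbers pair the libraries is not known. With libraries left out, the enrichment change gave 82 to 221 calls, lowest without Res IgG replicate 2 (158 without Sens IgG replicate 3), and the RIP groups 8 to 39. Res IgG replicate 2 gave the 8, and prior degrees of freedom of 6.06, from outside that comparison. Depth limits circSMARCA5 throughout, at 26 counts in 12 libraries.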
